A study of Sus scrofa with 8 samples.

Results

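A group of 10 genes that pattern the paraxial mesoderm were followed through pig somite development: TBX6, MESP2, LFNG, HES7 and RIPPLY2, which act in segmentation, and MEOX1, MEOX2, TCF15, UNCX and DMRT2, which act in the formed somite. They were taken by name from the feature table shared by all 8 single-cell RNA-seq libraries, where they make up 10 of 21301 features, and all 10 had at least 1 UMI (a distinct RNA molecule counted in a cell). Tissue was taken at embryonic day (E) 16, 18 and 21 as somites and on day 28 as myotome, the layer of the somite that gives skeletal muscle. At each stage 1 library came from Tibetan pigs (ZZ) and 1 from DurocxTibetan pigs (DZ), the offspring of both breeds, with no treatment named for either, and each was a pool of 5 embryos from a sow, released with collagenase and DNase. E16 and E18 are called early below (4 libraries) and E21 and E28 late (4 libraries). With 1 library for each stage and breed, no pool has a replicate of its own. The p-values over whole libraries and within a gate measure the spread left between these pools after the terms of the fit. For late against early that spread includes the stages joined in each period. Where the library was a block, the p-values measure how gates vary within the same pools.

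Somites bud off in pairs from the presomitic mesoderm at the tail end of the embryo. There a Notch-dependent clock, which includes the repressor HES7 and the glycosyltransferase LFNG, ticks in each cell, TBX6 keeps the cells mesodermal, and MESP2 together with its repressor partner RIPPLY2 sets the next boundary. In the new somite TCF15 (paraxis) is needed for the epithelial ball, MEOX1 and MEOX2 for its sclerotome and muscle derivatives, UNCX for the caudal part of the sclerotome, and DMRT2 for the dermomyotome, where it is known as an upstream regulator of MYF5. Several of them also work elsewhere, LFNG in neural progenitors and blood vessels and UNCX in classes of neuron.

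On Sscrofa11.1 (RefSeq annotation) the clock and boundary genes lie at chr3:18271983-18277864 (TBX6, minus strand), chr7:55341941-55345824 (MESP2, plus), chr3:1721044-1819426 (LFNG, plus), chr12:53334350-53339336 (HES7, minus) and chr1:82427956-82432844 (RIPPLY2, minus). The somite genes lie at chr12:19431397-19452430 (MEOX1, plus), chr9:84945178-85009939 (MEOX2, minus), chr17:34626682-34632881 (TCF15, plus), chr3:804188-808574 (UNCX, plus) and chr1:220745493-220799779 (DMRT2, minus). YPEL3 ends 135 bases upstream of the TBX6 start on the same strand, and PPP4C lies 395 bases from the TBX6 3′ end on the opposite strand. The RefSeq model of LFNG overlaps CHST12 and GRIFIN. Whether these neighbours affect the low TBX6 counts or those of LFNG was not tested. The 250 bases upstream of the gene start are shown for the 4 genes whose levels carry the results below. Capitals mark the E-box CANNTG, the letters bound by basic helix-loop-helix factors such as MESP2 and TCF15, and TAATTA, a core bound by homeodomain factors such as UNCX and the MEOX proteins; both motifs read the same on either strand.
DMRT2: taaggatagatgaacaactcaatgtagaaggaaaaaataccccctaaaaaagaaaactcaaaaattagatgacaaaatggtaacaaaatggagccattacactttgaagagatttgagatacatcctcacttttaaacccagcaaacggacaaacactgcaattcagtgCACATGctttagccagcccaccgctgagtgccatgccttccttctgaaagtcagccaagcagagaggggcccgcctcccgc
MEOX2: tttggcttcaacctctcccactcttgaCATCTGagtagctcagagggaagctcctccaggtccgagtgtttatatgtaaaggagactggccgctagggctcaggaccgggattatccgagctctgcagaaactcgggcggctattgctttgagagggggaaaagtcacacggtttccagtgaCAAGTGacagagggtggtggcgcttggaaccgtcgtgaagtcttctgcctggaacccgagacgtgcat
UNCX: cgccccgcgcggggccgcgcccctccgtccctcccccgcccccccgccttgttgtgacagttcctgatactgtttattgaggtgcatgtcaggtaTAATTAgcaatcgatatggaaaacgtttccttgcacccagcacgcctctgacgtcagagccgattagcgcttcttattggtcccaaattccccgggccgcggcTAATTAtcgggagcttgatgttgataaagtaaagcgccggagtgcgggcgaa
RIPPLY2: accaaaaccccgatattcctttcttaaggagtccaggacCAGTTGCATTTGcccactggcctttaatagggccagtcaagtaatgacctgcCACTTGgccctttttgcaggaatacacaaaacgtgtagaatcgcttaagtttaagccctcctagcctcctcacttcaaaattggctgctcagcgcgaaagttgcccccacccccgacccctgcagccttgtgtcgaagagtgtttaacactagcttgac
These windows lie at chr1:220799780-220800029, chr9:85009940-85010189, chr3:803938-804187 and chr1:82432845-82433094, and are written 5′ to 3′ on the strand of the gene. DMRT2 held 1 E-box, MEOX2 2 and RIPPLY2 3, while UNCX held none and 2 TAATTA cores. Of 19531 RefSeq promoters of the same length 61.9% held an E-box, so its presence is common, whereas TAATTA was found in 3.73%. The T-box core GGTGTGA, searched on both strands, was in 2.53% of promoters and in none of the 10.

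The matrices held 39887814 to 57796312 UMIs per library. After removal of cells with few genes, many mitochondrial UMIs or high doublet scores, 74147 of 90688 barcodes remained, with a median of 3404.5 to 6192 UMIs. In the E16-ZZ library 39.2% of barcodes exceeded the mitochondrial limit and were removed, against 1.05% to 9.15% in the others, and any pair of libraries shared 23 to 49 barcodes. Cells were assigned to 15 marker gates, sets of cells with at least 3 markers of a type and fewer of every other, none of which used the 10 genes, and 44077 cells passed a gate. The dermomyotome gate (877 cells) carried PAX3 in 100% of cells but LBX1 in 0.456%. The sclerotome gate (947 cells) carried PAX1 in 94.5% but FOXC2 in 1.90% and NKX3-2 in 0.106%. Reads of these libraries come from the 3′ ends of transcripts, and whether the annotation reaches the 3′ ends of LBX1, FOXC2, NKX3-2 and HES7 was not checked, so their low counts may understate them. A presomitic gate took 13 cells, all at E16, with FGF8 in 100%, CDX2 in 76.9% and TBXT in 15.4%, and with MSGN1 and WNT3A in 0%. A gated fibroblast, chondrocyte or neuron is meant below in the sense of its markers alone.

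HES7, the core oscillator of the clock, was counted in 15 cells in all. The ZZ and DZ libraries of E16 held 6 and 8 of its UMIs, E18-ZZ held 1 and the other 5 libraries 0, each UMI in a cell of its own. No HES7 UMI was found in 40495 late cells, which allows a share of cells with a UMI of up to 0.00741%. Of the 15 cells 66.7% were ungated and 26.7% epithelial by their markers, none was in the presomitic gate, and 3 also had TBX6. HES7 was too low for any test.

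TBX6, the T-box factor of presomitic mesoderm, and MESP2, the boundary determinant, were sparse in every library. Among cells with a UMI of the gene, 92.5% held a single one for TBX6 and 96.0% for MESP2. The largest TBX6 count of any cell was 9 UMIs in E16-DZ and 4 in E16-ZZ, and no other library exceeded 3. MESP2 reached 12 UMIs in a cell of E16-DZ, 8 in E16-ZZ and 7 in E18-ZZ, with no more than 3 elsewhere. These maxima come from single unthinned cells, and their difference between stages was not tested. TBX6 stood at 3.74 and 5.83 UMIs per 1000000 of the library (CPM) in the ZZ and DZ libraries at E16, 2.61 and 2.19 at E18, then 4.07 and 2.57 at E21, then 3.63 and 2.54 at E28. The early and late ranges overlapped, and the means were 3.59 ± 1.63 and 3.20 ± 0.767 CPM (SD, n = 4 each). To compare shares of cells with a UMI, every cell was thinned to 1500 UMIs and shallower cells were left out. TBX6 was then in 0.147% of myogenic to 0.83% of neuron cells (95% exact interval of the latter 0.526 to 1.24%), and in 0.209% of erythroid cells (0.0253 to 0.753%), which serve as background because red cells should lack all 10 genes. Median depth before thinning was 4035.5 UMIs in the neuron gate and 6459.5 in the erythroid gate. The TBX6 intervals overlap, so none of these gates was shown to be above that background. The 13 cells of the presomitic gate held 2 TBX6 UMIs, in 15.4% of the cells unthinned and in 0 of 12 thinned ones, which allows a share of up to 25%, and no MESP2 UMI. They were too few for a sum or a test. MESP2 stood between 4.30 and 8.72 CPM in the whole libraries, with means of 6.32 ± 2.33 early and 7.03 ± 1.81 late (SD, n = 4 each). After thinning it was in 2.05% of dermomyotome cells (1.22 to 3.23%) and 1.41% of neural progenitors (0.874 to 2.14%) against 0.209% of erythroid cells. Against the mean of the other gates, in a fit of 86 sums of counts with the library as a block (edgeR quasi-likelihood, Benjamini-Hochberg), MESP2 was higher in neural progenitors by 1.07 ± 0.27 (log2 ± SE, adjusted p = 0.000971) and lower in the myogenic gate by a log2 difference of -0.87 ± 0.33 (adjusted p = 0.0283). The myogenic difference lost its call without E18-ZZ or E21-DZ (adjusted p = 0.0547 and 0.0826). MESP2 was also called higher in the neural crest and glia gate by 0.64 ± 0.25 (adjusted p = 0.0494), where 26.6% of genes were called, a call lost without any 1 of 6 libraries, all but E16-DZ and E28-DZ (adjusted p 0.0738 to 0.216), and with no doublets removed. In the dermomyotome gate, whose share of cells with MESP2 is given above, the difference was 0.48 ± 0.29 and was not called (adjusted p = 0.315).

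LFNG, the fringe enzyme that tunes Notch receptors, had its highest mean level over libraries outside the somite lineage. Whole libraries gave 18.9 and 25.3 CPM at E16 (ZZ, then DZ), 35.6 and 29.5 at E18, then 32.0 and 12.7 at E21, then 24.0 and 38.5 at E28. Early and late libraries overlapped. The neural progenitor gate carried PAX6 in 100% of cells, NES in 98.2% and HES5 in 89.6%, but FABP7 in 29.4%, SOX3 in 0.799% and OLIG2 in 0.200%. NES was also in 59.2% of other cells, and 1229 of the 1501 cells had exactly 3 markers. In this gate LFNG averaged 125 ± 25.6 CPM (SD, n = 6 libraries), with 116 and 124 at E16, 164 and 125 at E18, then 135 and 85.7 at E21. No library of the gate fell to the level of the whole tissue. The macrophage gate averaged 57.0 ± 33.8 CPM over 2 libraries, and the 13 presomitic cells held 6 LFNG UMIs, 94.3 CPM pooled, both too thin for the fit. Among gates in the fit the endothelial gate (55.3 ± 43.7, n = 8), the dermomyotome gate (53.0 ± 43.9, n = 8) and the myogenic gate (37.2 ± 41.8, n = 6) came next, with ranges that overlapped one another. Their ranges also reached into that of the progenitor libraries, with up to 129 CPM in the dermomyotome and 93.8 in the myogenic gate. The E28 libraries held 0 progenitor-gated cells, so the means cover different stages. LFNG was higher in neural progenitors than in the mean of the other gates by 3.19 ± 0.28 (adjusted p = 1.08e-15), and was found in 18.0% of thinned progenitor cells (16.1 to 20.1%, unthinned 45.2%) against 0.522% of erythroid cells. In this contrast 38% of all 11347 genes tested were called, and 5 of the 8 tested members, since MESP2 was also higher and MEOX1, MEOX2 and UNCX were lower.

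LFNG was also called higher in the endothelial gate (1.60 ± 0.30, adjusted p = 3.56e-06), the dermomyotome gate (1.19 ± 0.37, adjusted p = 0.0229) and the myogenic gate (1.17 ± 0.35, adjusted p = 0.00506), and lower in the lateral mesoderm gate (-2.05 ± 0.61, adjusted p = 0.0142), the chondrocyte gate (-1.75 ± 0.49, adjusted p = 0.00519) and the fibroblast gate (-1.57 ± 0.33, adjusted p = 0.000123). The lateral mesoderm gate had 4 libraries, all early, with 2.58 to 6.19 CPM, where 11.7% of genes were called, and its call was lost without E16-ZZ, E16-DZ or E18-ZZ (adjusted p = 0.0648, 0.0995 and 0.0627). The dermomyotome call was lost without E16-ZZ, E16-DZ, E21-DZ or E28-ZZ (adjusted p = 0.0543, 0.0536, 0.0730 and 0.0766) and the myogenic call without E28-ZZ or E28-DZ (0.0897 and 0.166). In the myogenic gate LFNG stood at 5.91 and 1.73 CPM at E18, then 21.8 and 13.0 at E21, then 87.1 and 93.8 at E28, so that the early and late libraries did not overlap. The difference of late against early was 3.83 ± 1.33 and missed the threshold (adjusted p = 0.139), with 2 early libraries in the fit. LFNG in these cells was found with myogenin less often than expected from the 2 shares within libraries. After thinning, 27 myogenic cells had both, against 70.9 expected, and the 88 cells with LFNG and MYOD1 were 0.615 of the number expected. Unthinned, 205 cells had LFNG and MYOG against 380.7 expected, which is 22.5% of the LFNG cells. The 547 unthinned cells with LFNG and MYOD1 were 0.855 of the number expected. MYOG and MYOD1 are markers of that gate, so these counts describe how LFNG falls within it.

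RIPPLY2, which represses MESP2 at the forming boundary, had its highest level in neurons. Whole libraries gave 1.73 and 2.96 CPM at E16 (ZZ, then DZ), 3.03 and 3.63 at E18, then 13.5 and 4.78 at E21, then 1.77 and 3.51 at E28, with E21-ZZ above all the rest. In the neuron gate it stood at 8.13 and 19.2 CPM at E18, then 57.9 and 39.2 at E21, then 77.4 and 70.0 at E28, from 2, 10, 423, 117, 21 and 75 UMIs, with every late library above both early ones. The E21-ZZ library also had the largest neuron gate, as neurons made up 0.486% to 16.1% of cells in late and 0.116% to 1.41% in early libraries, and in whole-library sums more cells of a type and more RNA per cell cannot be told apart. RIPPLY2 was found in 7.35% of thinned neurons (6.41 to 8.38%, unthinned 18.9%) against 0.104% of erythroid cells, and stood above the mean of the other gates by 4.02 ± 0.30 (adjusted p = 4.64e-20), the only gate in which it was called higher. NHLH1, a marker of newborn neurons, was in 0.494% of this gate. In the neuron contrast 58.7% of genes were called, and MEOX1 and MEOX2 were lower while MESP2 was higher by 0.74 ± 0.29 (adjusted p = 0.0237), a call lost without E21-ZZ, E21-DZ or E28-DZ. The MEOX1 call was lost without E21-ZZ (-1.53, adjusted p = 0.0600).

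UNCX was present in neurons as well, by 1.73 ± 0.38 above the mean of the other gates (adjusted p = 6.1e-05), at 20.3 and 44.2 CPM at E18, then 65.9 and 98.1 at E21, then 7.37 and 0 at E28. RIPPLY2 was highest at E28, where UNCX was lowest, in sums of only 48 (ZZ) and 199 (DZ) neurons. Unthinned, 40 neurons had both genes against 79.1 expected from their shares within libraries. After thinning the counts were 13 and 16.6, closer to each other. The neurons fell in 6 libraries with at least 20 of them. Within the neuron gate 0 of 3 tested members were called between late and early (3.7% of genes were called, edgeR), RIPPLY2 having the value 1.80 ± 0.48 (adjusted p = 0.0819). At an unadjusted p under 0.05 LFNG and RIPPLY2 were among 1759 of 8360 genes that passed, and DESeq2 called 2 members.

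**Figure D1:**
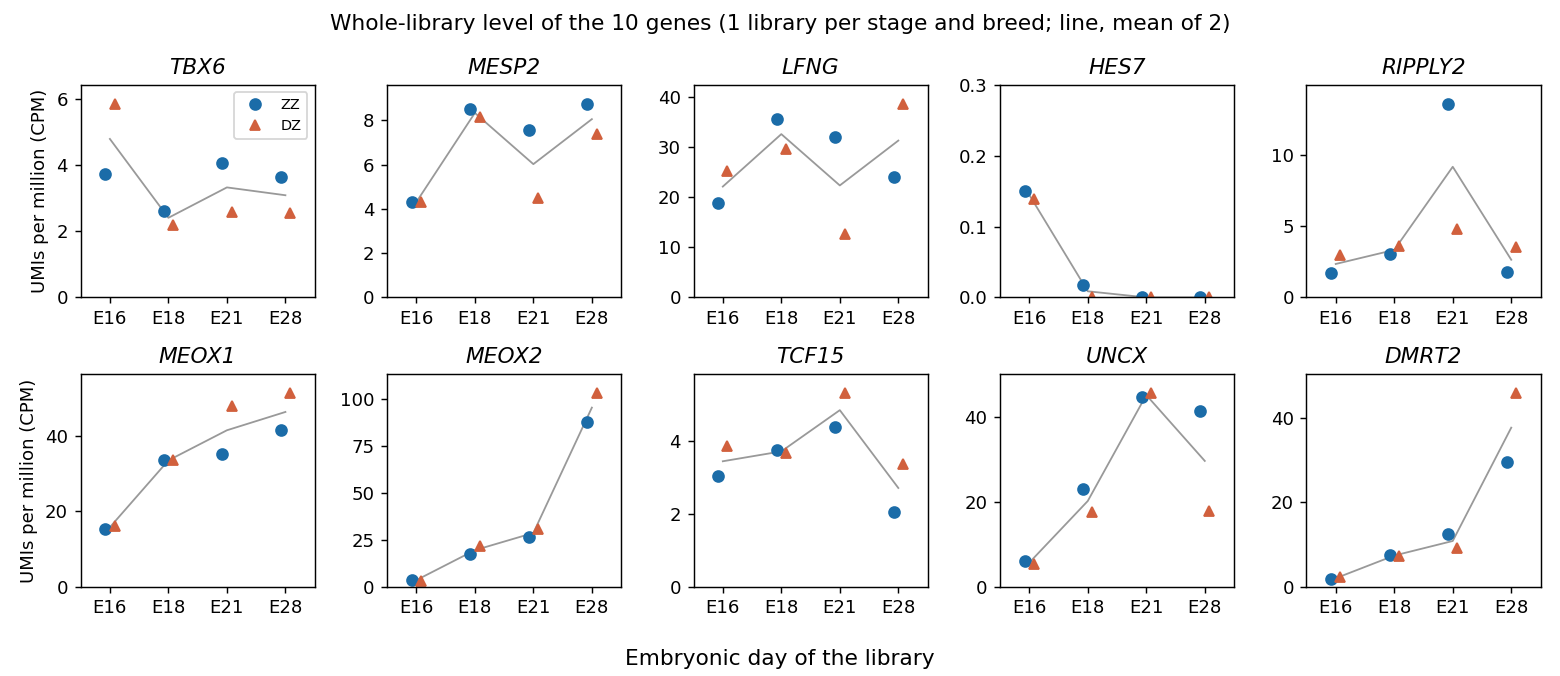
CPM of each gene (y axis, linear from 0, with a scale of its own for each gene) in the 8 whole libraries (x axis, stage, not to scale in days). Circles are ZZ, triangles are DZ, and the line joins the mean of the 2 libraries of a stage. MEOX2 goes from 3.24 to 103 CPM and DMRT2 from 1.70 to 45.8 between the lowest and the highest library, while TBX6 and TCF15 stay within 2.05 to 5.83.

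The somite factors behaved otherwise. In whole libraries DMRT2 and MEOX2 rose from early to late, UNCX and MEOX1 had higher means without passing the threshold, and TCF15 had similar means. DMRT2 stood at 1.70 and 2.28 CPM at E16 (ZZ, then DZ), 7.58 and 7.16 at E18, then 12.4 and 9.27 at E21, then 29.6 and 45.8 at E28, with no overlap between early and late libraries. MEOX2 likewise stood at 3.71 and 3.24, 17.4 and 21.5, 26.7 and 30.5, and 87.9 and 103, again without overlap. Their log2 differences, with breed as a covariate, were 2.20 ± 0.65 (adjusted p = 0.0327) and 2.30 ± 0.73 (adjusted p = 0.0418), so 2 of 9 tested members were called where 34.5% of all genes were. The share is below that of all genes, and the DMRT2 and MEOX2 calls were lost when any 1 of the E16 or E28 libraries was left out (DMRT2 1.62 to 1.97, MEOX2 1.86 to 2.03). The fibroblast gate described below held 65.2% of all DMRT2 UMIs and 66.0% of MEOX2 UMIs and was larger in late libraries, and its part in the whole-library rise was not tested. Among the 6 libraries made with Cell Ranger 3.0.2, without E16, the differences were 1.60 for DMRT2 (adjusted p = 0.185) and 1.59 for MEOX2 (0.168), and among the 6 somite libraries, without E28, 1.07 (0.240) and 1.21 (0.284).

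UNCX stood at 6.07 and 5.25 CPM at E16, 22.9 and 17.5 at E18, then 44.8 and 45.6 at E21, then 41.4 and 17.9 at E28. The value of E28-DZ lay within the early range. The difference was 1.40 ± 0.49 (adjusted p = 0.0597). MEOX1 stood at 15.4 and 16.2, 33.6 and 33.6, 35.2 and 47.9, and 41.5 and 51.3 CPM, without overlap, and differed by 0.66 ± 0.26 (adjusted p = 0.0825). TCF15 had 3.57 ± 0.368 CPM early and 3.77 ± 1.40 CPM late (SD, n = 4 each), and a difference of -0.13 ± 0.30 (adjusted p = 0.760). The other values were 0.81 ± 0.58 for RIPPLY2 (adjusted p = 0.301), -0.41 ± 0.39 for TBX6 (0.444), -0.23 ± 0.30 for LFNG (0.582) and -0.03 ± 0.28 for MESP2 (0.937).

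The step from E16 to E18 was shared by 4 of 9 members against 4.61% of genes: MEOX2 rose by 2.31 ± 0.17 (adjusted p = 0.00434), DMRT2 by 1.72 ± 0.24 (0.0214), MEOX1 by 0.92 ± 0.17 (0.0362) and UNCX by 1.65 ± 0.33 (0.0432). The E16 matrices were made with another version of Cell Ranger, and stage and version cannot be told apart. With any 1 of these 4 libraries left out MEOX2 kept its call and the other 3 lost theirs, and at a mitochondrial limit of 5% none of the 4 was called. Over the runs with 1 library left out the log2 values stayed at 1.55 to 1.90 for DMRT2, 1.51 to 1.80 for UNCX and 0.75 to 1.07 for MEOX1. From E18 to E21, where 21.2% of genes were called, UNCX rose by 1.12 ± 0.32 (adjusted p = 0.0476), a call lost without any 1 of the E16 and E18 libraries or E21-DZ. From E21 to E28, where 8.76% were called, MEOX2 rose by 1.72 ± 0.15 (0.00469) and DMRT2 by 1.77 ± 0.22 (0.01), and the tissue taken changed from somite to myotome, which cannot be told apart from the stage. RIPPLY2 had the value -1.83 ± 0.55 in that step (0.0889). Between DZ and ZZ libraries, with stage as a block, 0 of 9 members and 0% of 15122 genes were called by edgeR, 927 genes having an unadjusted p under 0.05. No member had such a p, and DESeq2 called none.

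**Figure D2:**
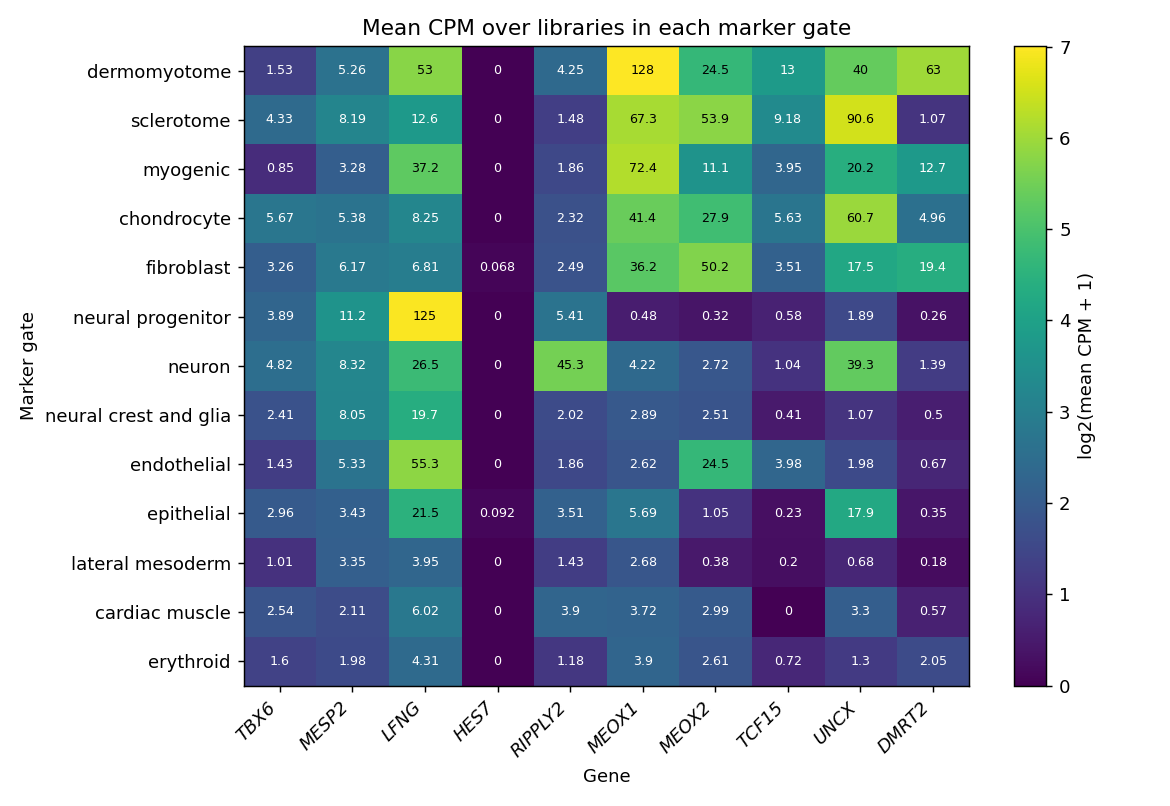
Mean CPM of each gene (x axis) in each marker gate (y axis), averaged over the libraries with at least 20 cells of the gate and printed in the cells, whose colour is log2 of the mean plus 1. LFNG is brightest in neural progenitors (125), RIPPLY2 in neurons (45.3), MEOX1 (128) and DMRT2 (63.0) in the dermomyotome gate and UNCX in the sclerotome gate (90.6).

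Among the gates the dermomyotome had the highest mean CPM of DMRT2, MEOX1 and TCF15, while MEOX2 and UNCX had higher means in the sclerotome gate (53.9 and 90.6 CPM). DMRT2 averaged 63.0 ± 22.3 CPM, MEOX1 128 ± 67.3, TCF15 13.0 ± 10.4, UNCX 40.0 ± 19.2 and MEOX2 24.5 ± 17.0 (SD, n = 8 libraries). Against the mean of the other gates 6 of 8 tested members were called, all higher, where 11.7% of genes were called: DMRT2 by 5.67 ± 0.36 (adjusted p = 4.08e-22), MEOX1 by 4.13 ± 0.25 (1.31e-23), TCF15 by 3.71 ± 0.43 (4.41e-10), MEOX2 by 2.68 ± 0.41 (1.06e-06) and UNCX by 2.34 ± 0.36 (9.17e-07), beside LFNG. TBX6 and HES7 were too low for this fit. MEOX1 was found in 19.5% of thinned dermomyotome cells (16.9 to 22.3%, unthinned 53.7%) and DMRT2 in 8.33% (6.59 to 10.4%), against 0.313% and 0.209% of erythroid cells.

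The sclerotome gate shared MEOX1, MEOX2, TCF15 and UNCX with the dermomyotome, but not DMRT2. There 4 of 8 tested members were called higher, where 13.5% of genes were called: MEOX2 by 3.78 ± 0.39 (adjusted p = 4.11e-12), UNCX by 3.55 ± 0.33 (8.02e-14), TCF15 by 2.98 ± 0.52 (1.39e-05) and MEOX1 by 2.95 ± 0.31 (6.64e-12). UNCX averaged 90.6 ± 43.5 CPM (SD, n = 7) and was found in 12.4% of thinned cells (10.3 to 14.6%, unthinned 32.5%), against 0% of erythroid cells. DMRT2 had 4 UMIs in the whole sclerotome gate. Set directly against each other, the dermomyotome and sclerotome gates had 1 of the 8 members called, DMRT2, higher in the dermomyotome by 6.45 ± 0.84 (adjusted p = 3.41e-08), where 3.45% of genes were called. LFNG (1.79 ± 0.61, adjusted p = 0.0893), MEOX1 (1.09 ± 0.37, 0.0927), UNCX (-1.11 ± 0.45, 0.213) and MEOX2 (-1.01 ± 0.49, 0.351) had an unadjusted p under 0.05 and missed the threshold after adjustment. Of all 11347 genes 1509 had such a p. A second member was called higher in the dermomyotome at other marker limits, LFNG with gates of at least 2 markers and MEOX1 with at least 4, which makes 2 members in each.

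In the myogenic gate, with CDH15 in 91.3% of cells, MYF5 in 76.5%, MYOD1 in 64.1% and MYOG in 41.3%, 4 members were higher and 1 lower than the mean of the other gates, where 35.7% of genes were called: MEOX1 by 3.17 ± 0.28 (adjusted p = 2.66e-16), DMRT2 by 2.79 ± 0.48 (1.48e-06), TCF15 by 1.97 ± 0.53 (0.00221), LFNG, and MESP2 below. Against the dermomyotome gate 5 members were lower in myogenic cells, where 23.2% of genes were called: DMRT2 by a log2 difference of -2.66 ± 0.50 (adjusted p = 2.64e-05), MEOX2 by -2.22 ± 0.57 (0.00201), UNCX by -1.46 ± 0.48 (0.0192), MESP2 by -1.25 ± 0.42 (0.0205) and TCF15 by -1.61 ± 0.58 (0.0325). The last 3 lost their calls without some single libraries, UNCX without E18-DZ, MESP2 without either E18 library, and TCF15 without E16-ZZ, E16-DZ, E18-ZZ or E28-DZ. Over the stages DMRT2 stood in these cells at 7.39 and 13.8 CPM at E18, then 15.5 and 10.7 at E21, then 13.7 and 14.8 at E28, and its late against early difference of 0.45 ± 0.38 was not called (adjusted p = 0.543).

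In the chondrocyte gate, marked by cartilage genes, UNCX was higher by 2.84 ± 0.32 (adjusted p = 3.41e-11), MEOX2 by 2.20 ± 0.40 (1.45e-05), MEOX1 by 2.06 ± 0.30 (1.64e-07) and TCF15 by 1.59 ± 0.57 (0.0372), with LFNG lower, where 20.5% of genes were called. The TCF15 call was lost without any 1 of 5 libraries (E16-ZZ, E18-ZZ, E18-DZ, E21-ZZ or E21-DZ). In the fibroblast gate, the largest with 23203 cells, DMRT2 was higher by 3.14 ± 0.38 (adjusted p = 2.32e-10), MEOX2 by 2.65 ± 0.32 (1.75e-10), MEOX1 by 2.34 ± 0.26 (5.81e-12) and TCF15 by 1.74 ± 0.41 (0.000536), where 27.2% of genes were called. In the endothelial gate TCF15 was higher by 1.498 ± 0.53 (adjusted p = 0.0132) and MEOX2 by 1.14 ± 0.43 (0.0212), beside LFNG, and 3 members were lower, where 53.1% of genes were called. Endothelial MEOX2 lost its call without E28-ZZ or E28-DZ (0.68 and 0.50, adjusted p = 0.242 and 0.350). RIPPLY2, 1 of the 3 lower members (-0.96, adjusted p = 0.0405), lost its call without any 1 of E16-ZZ, E18-ZZ, E18-DZ, E28-ZZ or E28-DZ (adjusted p 0.0542 to 0.118). In the remaining gates the fit called MEOX1 and UNCX lower in the neural crest and glia gate (-1.72 ± 0.48 and -3.80 ± 0.72, adjusted p = 0.00438 and 2.06e-05) and in the lateral mesoderm gate (-2.36 ± 0.63 and -3.08 ± 0.94, 0.00569 and 0.0177), and MEOX1 lower in the epithelial gate (-1.45 ± 0.47, 0.0210), where 18.6% of genes were called. The epithelial call was lost without either E16 library, and the UNCX call in lateral mesoderm without E16-DZ or either E18 library.

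**Figure D3:**
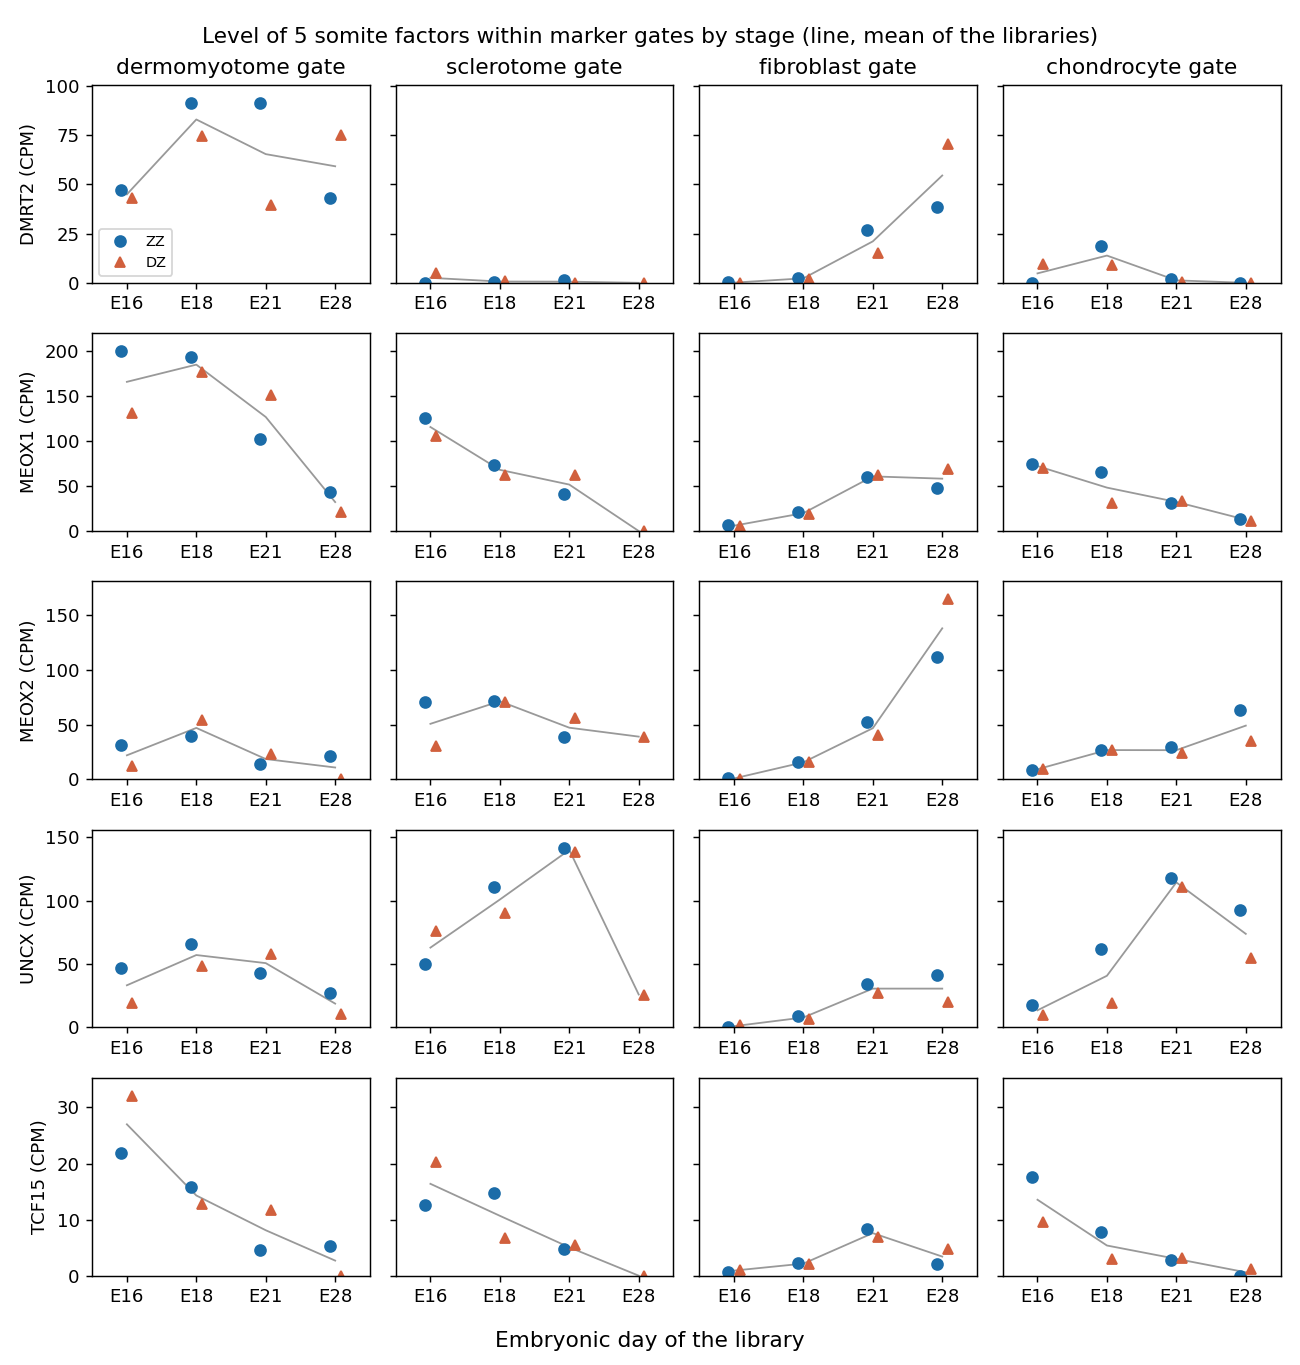
CPM (y axis) of the somite factors within the dermomyotome, sclerotome, chondrocyte and fibroblast gates by stage (x axis, not to scale in days). Each point is 1 library with at least 20 cells in the gate (circle ZZ, triangle DZ), and the line is the mean of a stage. In the dermomyotome gate MEOX1 is at 21.5 to 43.0 CPM at E28 against 132 to 200 at E16, and in the fibroblast gate it is at 47.8 to 68.8 against 5.47 to 6.39. The E28 dermomyotome sums hold only 39 cells in ZZ and 22 in DZ.

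Followed in time within a gate, the same genes had different courses in different gates. In the dermomyotome gate MEOX1 stood at 200 and 132 CPM at E16 (ZZ, then DZ), 194 and 177 at E18, then 103 and 151.3 at E21, then 43.0 and 21.5 at E28. Only E21-DZ among the late libraries reached the early range. TCF15 stood at 21.9 and 32.1, 15.8 and 12.8, 4.56 and 11.6, and 5.37 and 0, all late libraries being below the early ones. TCF15 was too low to be tested in this gate. None of the 5 members tested there was called between late and early (MEOX1 -0.84 ± 0.31, adjusted p = 0.111), where 7.8% of genes were called by edgeR. With no filter on low counts 2 members were called lower, and 1 was without E16-DZ or without E21-DZ. At an unadjusted p under 0.05 MEOX1 and MEOX2 were among 1348 of 6246 genes that passed, and DESeq2 called 0. The E28 libraries gave this gate 39 and 22 cells.

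In the sclerotome gate MEOX1 stood at 125 and 106 CPM at E16, 73.6 and 62.7 at E18, then 41.1 and 62.4 at E21 and 0 in E28-DZ, with 17 cells in E28-ZZ, too few for a sum. The late values were all below the early ones. UNCX stood at 50.2 and 75.8, 111 and 90.7, and 142 and 138, with 26.0 in E28-DZ, so that the early and late ranges overlapped. None of 4 members tested was called, where 9.94% of genes were. At an unadjusted p under 0.05 only MEOX1 of these passed, as did 1721 of 7714 genes in all, and DESeq2 called 0. In the chondrocyte gate UNCX stood at 17.5 and 9.55 CPM at E16, 62.1 and 19.5 at E18, then 118 and 111 at E21, then 92.7 and 55.0 at E28, and rose by 1.79 ± 0.37 (adjusted p = 0.00873). Without E18-DZ the value was 1.71 and the call was lost (adjusted p = 0.0536). DMRT2 fell there by 3.82 ± 0.88 on the log2 scale (0.0133) and LFNG by 2.06 ± 0.51 (0.0189), from 27 and 58 UMIs in the whole gate, where 15.8% of genes were called. MESP2 (60 UMIs) and TBX6 (41) did not pass the filter on low counts there. DMRT2, with fewer UMIs, passed it through small sums in which its CPM was high, so its fall is not independent of the filter. The LFNG call was lost without E16-DZ, E18-ZZ, E18-DZ or E28-ZZ, and the DMRT2 call without E16-DZ, E18-ZZ or E18-DZ. Without E28-ZZ 0 members were called lower, so DMRT2 was not called there either. Without E21-ZZ or without E28-DZ 1 member was called lower.

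In the fibroblast gate MEOX1 rose, while its negative differences in the dermomyotome and sclerotome gates were not called. DMRT2 stood at 0.177 and 0 CPM at E16 (ZZ, then DZ), 2.42 and 2.12 at E18, then 26.8 and 15.2 at E21, then 38.4 and 70.4 at E28. MEOX1 stood at 6.39 and 5.47, 21.0 and 18.9, 59.7 and 62.0, and 47.8 and 68.8. MEOX2 stood at 1.42 and 0, 15.6 and 15.4, 52.7 and 40.7, and 112 and 165. In these 3 genes, and in UNCX (0.355 to 8.85 CPM early, 20.2 to 41.1 late), every late library was above every early one. How many of all genes did so in this gate was not counted. The increases were 4.44 ± 0.65 for DMRT2 (adjusted p = 0.00237), 1.94 ± 0.34 for MEOX1 (0.00472), 2.47 ± 0.58 for UNCX (0.0147) and 3.14 ± 0.74 for MEOX2 (0.0152), 4 of 9 members against 28.8% of genes. Without the E16 libraries MEOX1 (1.48, adjusted p = 0.0113), UNCX (1.85, 0.0162) and DMRT2 (3.91, 0.0278) kept their calls and MEOX2 did not (2.45, 0.0582). Without the E28 libraries DMRT2, MEOX1, UNCX and TCF15 were called and MEOX2 was not (2.23, 0.0951).

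The gate changed in make-up over the same time. It grew from 3.41% to 13.6% of cells in early libraries to 25.9% to 72.7% in late ones. HAND2, a lateral plate and limb mesenchyme gene, was in 28.2% and 27.2% of fibroblast-gated cells at E16, 22.9% and 17.0% at E18, then 1.81% and 3.52% at E21, then 0.0696% and 0.150% at E28. OGN, a small proteoglycan of connective tissue, went the other way, from 15.1% and 15.7% at E16 to 76.3% and 92.1% at E28. Of 3 more connective tissue markers of the gate none had such an increase, LUM being in 84.8% and 60.5% at E16 and in 73.8% and 45.1% at E28, DCN in 64.4% and 50.3% and then 54.1% and 47.2%, and POSTN in 47.4% and 50.9% and then 37.2% and 33.6%. PRRX1, a gene of limb and lateral mesenchyme like HAND2, did not fall with it, being in 11.5% and 12.0% at E16, 32.7% and 25.8% at E18, then 28.4% and 34.0% at E21, then 30.7% and 26.9% at E28. PAX1, a sclerotome marker, was in 2.56% and 0.617% at E16, 13.0% and 11.7% at E18, then 15.1% and 6.92% at E21, then 8.28% and 9.23% at E28. The part of this change in the rise of the 4 somite factors was not tested.

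**Figure D4:**
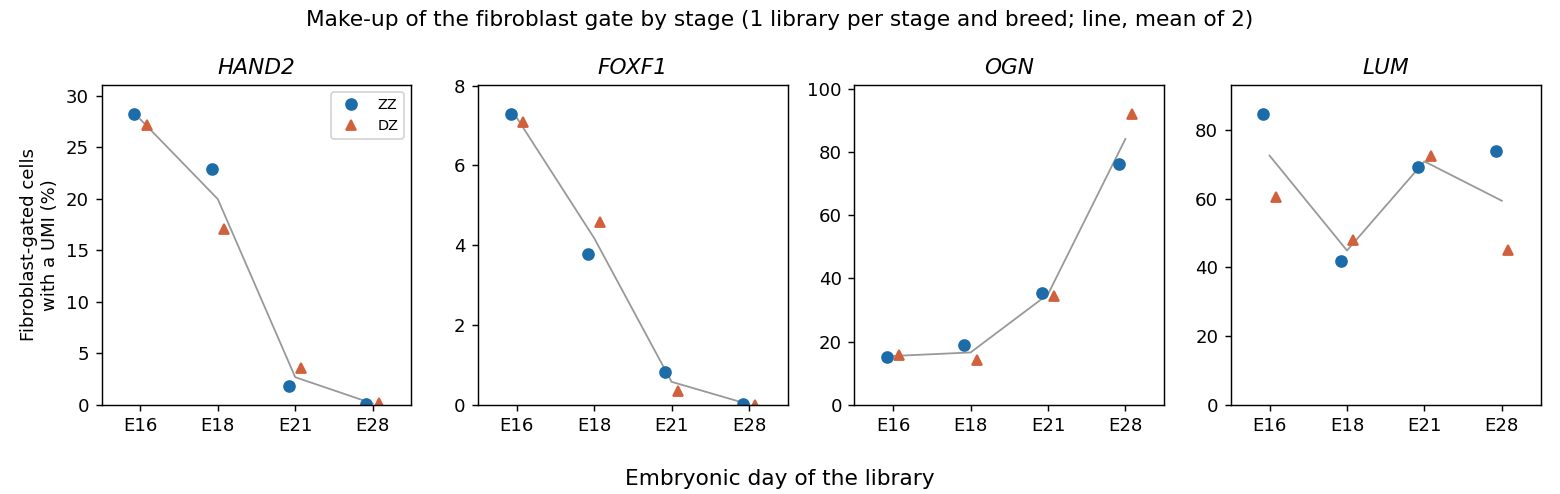
Percentage of fibroblast-gated cells with a UMI (y axis) for HAND2, FOXF1, OGN and LUM by stage (x axis, not to scale in days). Each point is 1 library (circle ZZ, triangle DZ), and the line is the mean of a stage. HAND2 goes from 28.2% and 27.2% at E16 to 0.0696% and 0.150% at E28, and OGN from 15.1% and 15.7% to 76.3% and 92.1%.

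The difference in course between gates was tested directly, in a fit of gate by period with the library as a block that was added after these values were seen. Between the dermomyotome and fibroblast gates 5 of 7 members differed where 5.26% of genes did, all with the lower late-minus-early change in the dermomyotome: DMRT2 by a log2 difference of -4.27 ± 0.36 (adjusted p = 3.06e-08), MEOX2 by -3.55 ± 0.44 (1.11e-05), TCF15 by -2.98 ± 0.61 (0.00305), MEOX1 by -2.86 ± 0.33 (3.74e-06) and UNCX by -2.64 ± 0.42 (0.000202). Between the sclerotome and fibroblast gates 4 of 7 differed in the same direction where 5.43% of genes did, among them MEOX1 by -2.51 ± 0.34 (7.19e-07) and MEOX2 by -2.64 ± 0.35 (5.14e-07). Between the fibroblast and chondrocyte gates 5 of 8 differed where 10.3% of genes did, with DMRT2 at 8.16 ± 0.91 (0.000153) and MEOX1 at 3.15 ± 0.50 (0.00167). Between the dermomyotome and chondrocyte gates 4 of 6 differed where 4.51% of genes did. UNCX had the lower change in the dermomyotome by -2.04 ± 0.32 (0.000368) and DMRT2 the higher by 3.46 ± 0.66 (0.00240). Both DMRT2 results against chondrocytes rest on the fall there that was not independent of the filter. TCF15 was too low to be tested within the dermomyotome or chondrocyte gate and entered these fits by a filter over both gates. Counts that include either are thus partly set by the filter. Between the sclerotome and chondrocyte gates UNCX differed by -1.29 ± 0.28 (0.0108), 1 of 5 members where 0.919% of genes did. Between the dermomyotome and sclerotome gates edgeR called 0 of 6 members, where it called 3.07% of genes. At an unadjusted p under 0.05 UNCX passed, with -0.62 ± 0.27, and how many of all genes did is not given.

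**Figure D5:**
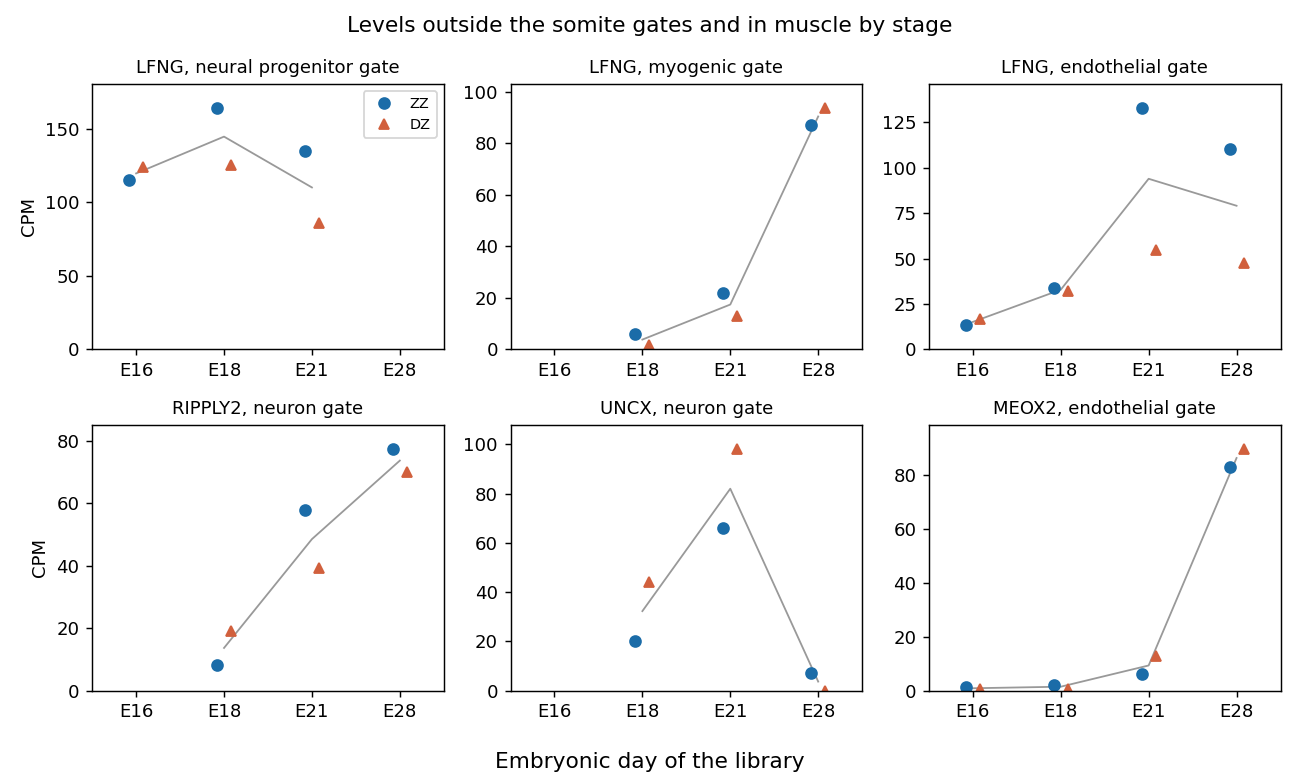
CPM (y axis) of LFNG, RIPPLY2, UNCX and MEOX2 by stage (x axis, not to scale in days) in the neural progenitor, myogenic, endothelial and neuron gates. Each point is 1 library with at least 20 cells of the gate (circle ZZ, triangle DZ), and the line is the mean of a stage. RIPPLY2 in neurons is at 8.13 and 19.2 at E18 and 77.4 and 70.0 at E28, and MEOX2 in endothelial cells at 0.602 to 2.19 in early and 6.00 to 89.5 in late libraries.

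In the endothelial gate MEOX2, known in vessels as a brake on growth, stood at 1.19 and 0.602 CPM at E16 (ZZ, then DZ), 2.19 and 0.745 at E18, then 6.00 and 12.7 at E21, then 82.9 and 89.5 at E28. LFNG stood at 13.3 and 17.0, 33.7 and 32.0, 133.1 and 54.9, and 111 and 47.8. In both genes every late library was above every early one. The whole libraries held MEOX2 at 26.7 and 30.5 CPM at E21 and at 87.9 and 103 at E28. No late endothelial sum was above its library in MEOX2, so its rise was not particular to this gate. The late sums hold 92 and 38 cells at E21 and 61 and 55 at E28. The 2 members that passed the filter on low counts were called higher late, MEOX2 by 5.35 ± 0.82 (adjusted p = 0.00121) and LFNG by 1.72 ± 0.33 (0.00413), where 26.7% of genes were called. The other members were too low to be tested there. MEOX2, at most 2.19 CPM in early libraries, could pass the filter through its late libraries, so this count is partly set by the filter. Endothelial cells were 2.09% to 8.89% of cells in early and 0.413% to 0.880% in late libraries. In the myogenic gate MEOX1 stood at 152 and 102 CPM at E18, then 63.1 and 59.0 at E21, then 31.3 and 27.2 at E28, without overlap, but none of 7 members was called there (MEOX1 -1.44, adjusted p = 0.0838), where 5.69% of genes were. There LFNG, MEOX1 and MEOX2 were among the 2227 of 10042 genes with an unadjusted p under 0.05, and DESeq2 called 2. None of 2 members was called in neural progenitors, where 13.7% of genes were. No member had an unadjusted p under 0.05 there, where 2427 of 8779 genes did, and DESeq2 called 0.

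Within cells, counted over 70734 cells of all types thinned to 1500 UMIs, 9 of the 10 pairs of the 5 somite factors were found together more often than their shares within libraries gave, at 1.487 to 2.57 times the expected number, and UNCX with DMRT2 less often (47 times against 64.4). Unthinned, UNCX and DMRT2 met 356 times against 326.1 expected, so the direction for this pair changed with depth. In thinned cells MEOX1 and TCF15 were found together 52 times against 20.2 expected. There DMRT2 and MEOX1 met 182 times against 100.4, and MEOX1 and MEOX2 414 times against 250.4. LFNG and MEOX2 met 56 times against 148.9, fewer than expected. Inside the fibroblast gate DMRT2 and MEOX1 met 95 times against 93.6 in thinned cells and 565 times against 450.5 in unthinned ones, and DMRT2 and MEOX2 183 times against 178.9 and 854 against 713.7. Inside the dermomyotome gate DMRT2 and MEOX1 met 29 times against 20.9 thinned and 200 against 161.2 unthinned. MEOX1 and MEOX2 met at 1.15 times the expected number in thinned fibroblast-gated cells, 1.29 in the sclerotome and 1.32 in the dermomyotome gate. As a description of likeness over the 86 sums of gate and library, which share libraries and gates, the genes with the most similar course were TNFAIP6 for MEOX1, MEOX2 and UNCX (Pearson r = 0.74, 0.73 and 0.68), CILP for TCF15 (0.69), CXCR4 for LFNG (0.69), KIF5A among those of RIPPLY2 (0.70), ZNF451 for MESP2 (0.65) and MYF5 for DMRT2 (0.76). MYF5 is a marker of the myogenic gate.

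Other genes of the pathway were taken in 3 lists. Of 14 tested Notch partners of the clock, 0 were called between early and late libraries (edgeR), and the list's median log2 difference was 0.03, where the median of all genes was 0.02 and 34.5% of genes were called. In single steps 3 of the 14 were called from E16 to E18 (2 higher), where 4.61% of genes were, 3 from E18 to E21 (1 higher), where 21.2% were, and 2 from E21 to E28 (both lower), where 8.76% were. The last 2 counts lie near the share of all genes. The Notch ligand DLL3 had -1.90 ± 0.34 (adjusted p = 0.0338), 2.55 ± 0.34 (0.00571) and -7.57 ± 0.50 (0.00300) in these steps, and the ligand JAG1 0.69 ± 0.14 (0.0431), -0.60 ± 0.14 (0.0242) and -1.48 ± 0.14 (0.00524). The effector HEYL rose by 3.01 ± 0.40 (0.0199) in the first step, and POFUT1, which adds O-fucose to Notch, fell by 0.58 ± 0.15 on the log2 scale (0.0394) in the next. Of 15 tested tail bud and wavefront genes 1 was higher, the FGF receptor FGFR1 (0.63 ± 0.18, adjusted p = 0.0321), and 5 were lower, with a median of -0.82. The lower ones were the posterior homeobox genes CDX1 (-4.25 ± 0.58, adjusted p = 0.00289), CDX4 (-5.43 ± 1.14, 0.0103) and CDX2, together with the Wnt effector LEF1 (-1.16 ± 0.31, 0.0235) and SP5. CDX2 and SP5 are markers of the presomitic gate. Of 16 tested genes of boundary, polarity and epithelium 2 were higher, CDH11 (1.42 ± 0.26, 0.00636), a mesenchymal cadherin, and EPHA4 (1.03 ± 0.28, 0.0261), an ephrin receptor of somite boundaries, with a median of -0.0036. In the dermomyotome gate 3 of 12 Notch partners were higher than the mean of the other gates, DLL3 (2.73 ± 0.57, adjusted p = 0.000431), HEY1 (1.47 ± 0.36, 0.00328) and NOTCH2 (0.93 ± 0.15, 1.56e-06), where 7.46% of genes were higher. So were the protocadherin PCDH8 (1.42 ± 0.41, 0.0145) and MESP1 (0.79 ± 0.24, 0.0174), the close relative of MESP2, 2 of 9 boundary genes once the markers of gates were left out. In the fibroblast gate 6 of 9 boundary genes were higher, where 18.8% of genes were, among them SNAI2 (2.72 ± 0.22, 9.02e-18) and FN1 (2.17 ± 0.18, 1.28e-16).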

How the data were processed

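The authors made 10x Chromium 3′ v3 libraries and deposited UMI counts per gene and barcode, filtered to called cells and not normalized, from Cell Ranger 3.1.0 (E16) or 3.0.2 (the other stages) on Sscrofa11.1 with the Ensembl 98 annotation. Barcodes with fewer than 200 genes, over 30000 UMIs or over 10% of UMIs on 13 mitochondrial genes were removed. The automatic threshold of Scrublet (scanpy 1.11.5) marked 305 barcodes, too few to trust, so the highest scores were removed at 0.8% per 1000 barcodes (8247 in all).

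The 15 gates took cells with at least 3 markers of a type, including a defining one, and more than of any other type, and left 40.6% of cells ungated. The authors' own assignment of cells was not used here. Counts were summed over cells in each library (gates with at least 20 cells) and tested with edgeR 4.0.16 (TMM, its default filter, quasi-likelihood test, Benjamini-Hochberg at 0.05; R 4.3.3): late against early and DZ against ZZ over whole libraries, the stages in turn, gates against each other with the library as a block, and late against early within a gate. All tests ran over all genes that passed the filter. Simulated counts of a fixed spread were used to check late against early over whole libraries and the dermomyotome gate against the mean of the others. The test of courses between dermomyotome and fibroblast gates was checked in the same way, and the other comparisons were not. CPM are counts per 1000000 UMIs of the sum. UMI levels were not compared between genes. The share of all genes whose early and late libraries did not overlap was not counted, so a lack of overlap describes single genes only. Exact binomial intervals of 95% and the limit of 3 counts for a count of 0 cover counting error only. In a count of a given pair of genes, the expected number is the product of both shares, summed over libraries.

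The genes named are the 10 members, the 3 genes most like each by Pearson correlation (the first or a named one is given), and genes of the 3 pathway lists that passed the test. Members, markers and lists were chosen with earlier results of these data known, and the gene pairs and the test of courses between gates after their values were seen. Promoters come from the RefSeq annotation of Sscrofa11.1, with matches for all 10 genes. Alternatives were another doublet rule, a mitochondrial limit of 5%, all deposited barcodes, gates of 2 or 4 markers, no filter on low counts, DESeq2 1.42.0, no breed term, thinning to 3000 UMIs, and leaving out libraries or stages. Python 3.11.15, numpy 2.4.6, scipy 1.17.1, pandas 2.3.3 and matplotlib 3.10.9 were used.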

Additional observations from a re-analysis of the deposited data

Results flagged for a closer look

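In whole late libraries UNCX stood at 17.9 CPM in E28-DZ, apart from the other 3 (41.4 to 45.6 CPM), with a gap of 0.851 of the range of the 4 libraries, above the 95% limit of the Dixon test. This was 1 of 60 groups of 4 libraries examined in this way, and chance alone marks about 1 in 20.

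The change from early to late differed between gates in 19 cases, by a test of the difference itself (edgeR, gate by period, Benjamini-Hochberg over all genes of the fit). Dermomyotome minus fibroblast gave log2 differences of -4.27 for DMRT2, -3.55 for MEOX2, -2.98 for TCF15, -2.86 for MEOX1 and -2.64 for UNCX, with adjusted p from 3.06e-08 to 0.00305. Sclerotome minus fibroblast gave -3.17 for TCF15 (adjusted p = 0.000469), -2.64 for MEOX2, -2.51 for MEOX1 and -1.70 for UNCX (1.43e-05). None of these 9 lost its call when any 1 library was left out. The make-up of the fibroblast gate (HAND2 and OGN) moved over the same stages, and its part was not tested.

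Dermomyotome minus chondrocyte gave 3.46 for DMRT2 (adjusted p = 0.00240), 2.96 for LFNG (0.0163), -2.04 for UNCX (0.000368) and -1.81 for MEOX2 (0.0157). Without E18-ZZ LFNG and DMRT2 lost their calls (0.0739 and 0.0583), and without E18-DZ LFNG and MEOX2 did (0.123 and 0.0978). Sclerotome minus chondrocyte gave -1.29 for UNCX (0.0108), a call lost without E18-DZ (0.237). Fibroblast minus chondrocyte gave 8.16 for DMRT2 (0.000153), 3.54 for TCF15 (0.0113), 3.15 for MEOX1 (0.00167), 2.55 for LFNG (0.0431) and 1.96 for MEOX2 (0.0292). There the LFNG call was lost without any 1 of the E16, E18 or E28 libraries, and the MEOX2 call without E16-ZZ, E18-ZZ or E18-DZ. DMRT2 in chondrocytes rests on 27 UMIs, and its fall there was not independent of the filter on low counts. TCF15 was too low to be tested within the dermomyotome or chondrocyte gate alone.

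Outside the fits, LFNG had 6 UMIs in the 13 cells of the presomitic gate. In the 77 cells of the macrophage gate LFNG had 30 UMIs (55.4 CPM), MESP2 5, MEOX2 5 and MEOX1 4.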

How the results depend on the processing

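Of the counts and shares recomputed under settings other than leaving out 1 library, 153 stayed the same and 36 moved, and of values of single genes 404 kept direction and call, 38 lost their call, 5 gained one and 3 changed sign. Over whole libraries, late against early called 2 members, but 4 of 9 at a mitochondrial limit of 5% (31.9% of genes called), 4 with DESeq2 (41.8%), 0 without the E16 libraries (DMRT2 1.60, MEOX2 1.59) and 0 without the E28 libraries (1.07 and 1.21). TBX6 changed sign without E16 (0.30), MESP2 at the 5% limit (0.048) and TCF15 without E28 (0.27), none of them called. E18 against E16 called 0 at the 5% limit in place of 4 (0.291% of genes called). DESeq2 called 1 member lower from E16 to E18, 3 higher from E18 to E21 and 2 lower from E21 to E28, where it called 8.53% of genes lower, 13.9% higher and 7.45% lower. It called 3 lower in myogenic than dermomyotome cells in place of 5 (14.5% of genes lower), and 1 higher and 1 lower between stages in each of the myogenic and neuron gates (6.93% and 7.45% of genes called). It also called 26 pairs of gene and gate lower than the mean of the other gates. edgeR with 1 library left out gave 13 to 16 such pairs, and the share of all genes that DESeq2 called lower is not given. With no filter on low counts the calls between stages were 2 higher in chondrocytes (8.53% of genes higher), 2 lower in dermomyotome (3.2% lower), 1 lower in sclerotome (2.88% lower), and 1 higher and 1 lower in each of the myogenic and neuron gates (9.65% and 7.36% called). Gates of at least 2 or at least 4 markers each gave 2 members higher in dermomyotome than sclerotome (2.15% and 0.727% of genes higher). At 2 markers 4 were lower late in chondrocytes (9.87% of genes lower) and 1 in neurons (2.59%), and with no doublets removed 1 was lower in chondrocytes (7.87%). Without the E16 libraries 2 members differed in course between fibroblasts and chondrocytes. Shares of cells rose with depth, unthinned and at 3000 UMIs, to 45.2% and 32.4% for LFNG in neural progenitors, 53.7% and 35.3% for MEOX1 in dermomyotome, 32.5% and 22.3% for UNCX in sclerotome and 18.9% and 13.7% for RIPPLY2 in neurons. The share of LFNG cells with MEOX2 was 7.18% with no doublets removed, in place of 6.06%. The cause of these changes was not tested.

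Leaving out 1 library at a time gave 0 to 4 members higher late over whole libraries, 1 to 4 higher at E18 than E16, 0 to 1 higher and 0 to 1 lower at E21 than E18, and 0 to 1 lower at E28 than E21. Myogenic against dermomyotome had 3 to 5 lower. Between stages 0 to 1 was higher and 0 to 2 lower in chondrocytes, 0 to 1 lower in dermomyotome, 0 to 1 lower in the myogenic gate and 0 to 1 higher in neurons. Members that differed in course were 2 to 4 between dermomyotome and chondrocytes, 0 to 1 between sclerotome and chondrocytes and 3 to 5 between fibroblasts and chondrocytes. The share of all genes called in each of these runs is not given, so the counts do not single out the members. Values that were not called moved across 0: TBX6 (-0.61 to 0.10), MESP2 (-0.20 to 0.18), LFNG (-0.54 to 0.027), RIPPLY2 (-0.091 to 1.08) and TCF15 (-0.33 to 0.083). Replicate numbers pair no libraries, since the labels give 1 library per stage and breed. The stage was the block for DZ against ZZ, and the library for gates. TBX6 and HES7 had few UMIs, and the E28 dermomyotome and sclerotome gates few cells (17 to 39).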
